A study of Rattus norvegicus with 9 samples.

Results

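Rat striatum with intracerebral hemorrhage, a bleed into the substance of the brain, was compared with sham striatum by sequencing of its RNA. The comparison rests on 3 libraries labelled Intracerebral hemorrhage (ICH 1, ICH 2 and ICH 3) and 3 labelled Sham (Sham 1, Sham 2 and Sham 3), of 9 in the series. The other 3, labelled Edaravone dexborneol (EDB), were not compared. They entered the filter on low counts, the scaling and the estimate of the spread between libraries. Every gene that passed the filter was included, which gave 14274 of the 22890 genes in the files, and 4803 genes had no count in any library. With the 6 Sham and ICH libraries alone the filter left 14054 genes. Besides the tissue and the group the labels describe no animal: strain, sex, age, how the bleed was made, what the sham procedure was, the time since either, and how much of the tissue around the clot was taken are points not given in the sources used here. No label states that a group's 3 libraries are from separate rats, so p-values describe no more than the spread among these samples, which may be technical.

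When blood enters the striatum, red cells break open over the following days and release haemoglobin, haem and iron. Microglia, the resident macrophages, and monocytes arriving from the blood engulf red cells and dead tissue and digest them in lysosomes, and haem oxygenase 1 opens the haem ring. Astrocytes around the clot enlarge and build more of the filament protein GFAP. The striatum itself consists mostly of inhibitory projection neurons, which carry dopamine D1 receptors (direct pathway) or dopamine D2 receptors together with the adenosine receptor Adora2a (indirect pathway) and signal through cAMP and DARPP-32.

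Levels below are CPM, each gene's counts as parts of the library's total on a common scale, after scaling for library size and composition, always listed for replicate 1, 2 and 3 of a group. They are not divided by transcript length, so levels of different genes are not compared. Each change is a log2 fold change, ICH minus Sham, with its standard error, from 3 libraries against 3, followed by the Benjamini-Hochberg adjusted p of edgeR's quasi-likelihood test over all 14274 genes. The words rose and fell are kept for genes with that p under 0.05. Genes were also read in 72 lists by cell type or process, of which 1129 genes passed the filter and 103 did not and have no test.

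Total counts ran from 14658110 to 17659936 over the 9 libraries. Sham 2 lay away from the other Sham libraries along the second principal component of the 6 libraries (19.6% of the variance), while the first (57.7%) separated Sham from ICH. The mitochondrially encoded genes took from 2.93% of counts in ICH 2 to 12.03% in Sham 3. ICH 1 had no counts of the Y-linked Kdm5d and Eif2s3y, which the remaining Sham and ICH libraries held at 10.3 to 18.5 and at 3.35 to 9.91 CPM. The libraries within a group all differed by more than sampling noise. Results that rest on 1 library are given with and without it.

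In ICH, 1628 genes were higher (11.4% of those tested) and 1042 were lower (7.30%), 18.7% together. At an unadjusted p under 0.05 there were 4501. The rises were larger than the falls: 976 of the risen genes had changed more than 2-fold and 443 more than 4-fold, against 213 and 23 of the fallen genes. Of the risen genes, 67 had fewer than 10 counts over the 3 Sham libraries and 7 had none. Such genes could pass the filter through the groups where they are high, and the size of their rise is poorly bounded. Median changes on the log2 scale were 1.22 for risen genes, -0.70 for fallen genes and 0.01 for all genes tested. The groups did not overlap in 1624 of the risen and 1028 of the fallen genes, beside 35.6% of all genes tested. Genes that rose held 6.62% to 7.22% of all Sham reads and 14.45% to 15.22% of all ICH reads, and genes that fell held 20.54% to 22.68% and 12.52% to 14.67%. Scaled by library size alone, 2008 genes were higher and 691 lower. Without ICH 1 the genes called lower numbered 565, and 1204 were higher. ICH 1 was the highest ICH library in 55.1% of the risen genes and the lowest in 59.3% of the fallen genes, and ICH 3 was the lowest in 50.1% of the risen genes.

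**Figure D1:**
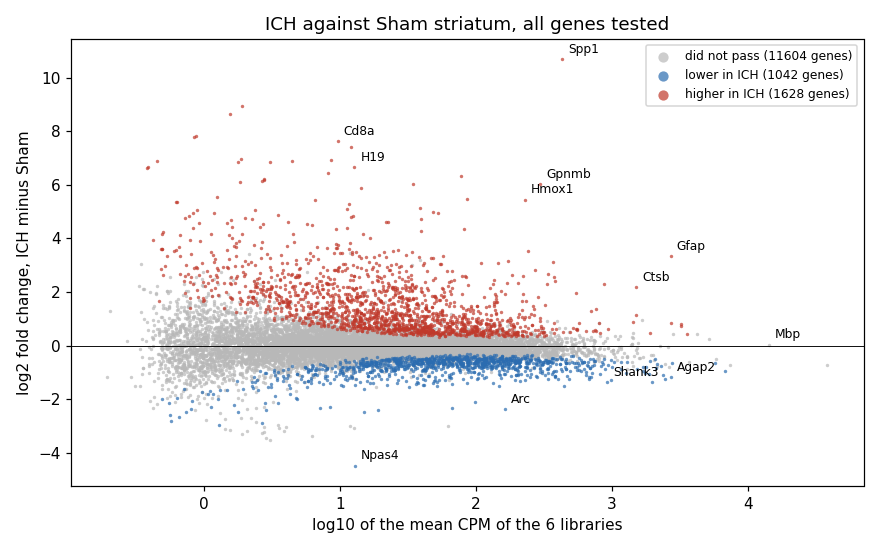
Each point is a gene of the 14274 tested, with the log10 of its mean CPM over the 6 libraries on the x axis and its log2 fold change, ICH minus Sham, on the y axis. Red points were higher in ICH (1628), blue points lower (1042) and grey points did not pass, and the red points reach farther from 0 than the blue points.

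The label of the tissue was checked against cell markers. Striatal projection neuron markers were present in all 6 libraries, and their summed level was 16603 to 24025 CPM in Sham and 10251 to 13464 CPM in ICH. Markers of the neighbouring cortex were summed at 54.5 to 104 CPM in Sham and 51.03 to 92.004 CPM in ICH, and 0 of 9 passed the test (median -0.10). Of 8 markers of the hypothalamus and thalamus, 5 were removed by the filter, and Prkcd, a protein kinase C that blood-derived cells also make, rose (1.29 ± 0.17, adjusted p = 0.000494). Choroid plexus (8 tested), ependyma (6) and liver markers (7) gave no call. Without Sham 2, 8 liver markers were lower in ICH. In bulk tissue, fewer cells of a type and less RNA per cell cannot be told apart, and this holds for every change below.

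Several neuronal markers fell in the ICH tissue and many myeloid markers rose, as counted below beside the 7.30% and 11.4% of all genes tested. Of 14 markers of neurons in general, 3 fell and 0 rose, but all 14 had a negative change (median -0.46). The count of falls was 1 without ICH 2 or EDB 1, and 2 of the 3, Tubb3 and Stmn2, depended on the setting: Tubb3 was not called without Sham 2, ICH 1, ICH 2, ICH 3, EDB 1 or both Sham 2 and ICH 1, and with library size scaling or the 6 libraries alone (adjusted p between 0.0515 and 0.104), and Stmn2 was not called when any 1 library except ICH 3 was left out, and without both Sham 2 and ICH 1, and with library size scaling, no filter or the 6 libraries alone (adjusted p between 0.0603 and 0.19). Rbfox3, the nuclear antigen NeuN, fell from 279, 437 and 345 CPM to 197, 199 and 242 CPM (-0.73 ± 0.16, adjusted p = 0.00946). The neurofilament Nefm stood at 86.2, 123 and 104 CPM in Sham and 86.2, 47.8 and 39.2 CPM in ICH, where ICH 1 reached the level of Sham 1, and it did not pass (-0.86 ± 0.28, adjusted p = 0.0531). It passed without ICH 1, EDB 3 or both Sham 2 and ICH 1, and with RLE scaling, DESeq2 or limma-voom (adjusted p between 0.0051 and 0.049). The synaptic calcium sensor Syt1 was nearest to 0 among these markers, at -0.08.

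Among 19 markers of striatal projection neurons, 12 fell and the other 7 did not pass, with negative changes in all 19 (median -0.70). The guanine exchange factor Rasgrp2 stood at 196, 289 and 177 CPM in Sham and 97.5, 115 and 108 CPM in ICH (-1.04 ± 0.18, adjusted p = 0.00218). Sham 2 was the highest library and the groups did not overlap. The potassium channel partner Kcnip2 (-0.85 ± 0.17, adjusted p = 0.0051), the tyrosine phosphatase Ptpn5 (-0.76 ± 0.17, adjusted p = 0.0104), known as STEP, and the phosphodiesterase Pde1b (-0.86 ± 0.19, adjusted p = 0.0106) fell as well. DARPP-32, the product of Ppp1r1b, is the classic marker of these cells, and its transcript stood at 4029, 6174 and 3246 CPM in Sham and 2330.3, 3069 and 3433 CPM in ICH. Sham 3 lay below ICH 3, and the difference did not pass (-0.61 ± 0.23, adjusted p = 0.0949). It passed without Sham 3, and with DESeq2 (adjusted p between 0.0279 and 0.0416). Without ICH 1 the count of fallen markers was 4 of 19. The absent Y-linked transcripts also set ICH 1 apart, and their part in these counts was not tested.

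The pathways of these neurons gave different counts, but the difference between them was not tested. Of 7 direct pathway markers 2 fell (median -0.23), and of 7 indirect pathway markers 3 (median -0.48). The dopamine D1 receptor gene Drd1 stood at 294, 395 and 249 CPM in Sham and 239.6, 286 and 273 CPM in ICH. ICH 2 and ICH 3 lay inside the Sham range, and it did not pass (-0.23 ± 0.19, adjusted p = 0.444). The adenosine receptor gene Adora2a stood at 566, 925 and 617 CPM in Sham and 352, 448 and 403 CPM in ICH, with no overlap, and fell (-0.81 ± 0.18, adjusted p = 0.0101). The orphan receptor Gpr52, found on the same neurons, stood at 46.6, 46.9 and 41.8 CPM in Sham and 25.1, 23.7 and 21.7 CPM in ICH and fell (-0.94 ± 0.20, adjusted p = 0.00833). The dopamine D2 receptor gene Drd2 stood at 333, 536 and 371 CPM in Sham and 249, 279.6 and 304 CPM in ICH (-0.57 ± 0.17, adjusted p = 0.0399), and it was not called when any 1 library except Sham 1 was left out, and without both Sham 2 and ICH 1, and with library size scaling or the 6 libraries alone (adjusted p between 0.0501 and 0.164). The opioid precursors of the pathways did not pass, with -0.44 ± 0.16 for Penk (adjusted p = 0.0741) and 0.03 ± 0.17 for Pdyn (adjusted p = 0.926). Penk passed with DESeq2 (adjusted p = 0.0218). The muscarinic M4 receptor gene Chrm4 and the transporter Slc35d3, which made the direct pathway's count, both depended on the setting: Chrm4 was not called when any 1 library except Sham 1 was left out, and without both Sham 2 and ICH 1, and with library size scaling, limma-voom or the 6 libraries alone (adjusted p between 0.0582 and 0.21), and Slc35d3 was not called when any 1 library except Sham 3, EDB 2 and EDB 3 was left out, and without both Sham 2 and ICH 1, and with library size scaling, limma-voom or the 6 libraries alone (adjusted p between 0.0502 and 0.116).

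Of 11 interneuron markers 4 fell and 0 rose (median -0.55). The homeobox factor Lhx6, which specifies interneurons that migrate from the ganglionic eminence, stood at 18.7, 18.9 and 19.3 CPM in Sham and 9.795, 11.4 and 12.4 CPM in ICH (-0.76 ± 0.16, adjusted p = 0.00838). Lhx8, needed by cholinergic interneurons, stood at 12.3, 13.8 and 14.9 CPM in Sham and 5.83, 6.67 and 8.91 CPM in ICH (-0.94 ± 0.21, adjusted p = 0.0109) and was not called without both Sham 2 and ICH 1 (adjusted p = 0.0582). Their values within Sham differed little, and the groups were apart. Somatostatin (Sst) and neuropeptide Y (Npy), which mark a further interneuron class, overlapped between the groups, at -0.43 ± 0.16 and -0.29 ± 0.20 (adjusted p = 0.0951 and 0.368). Sst passed without Sham 1 (adjusted p = 0.0421), and so did Npy (adjusted p = 0.0341). The count was 2 without Sham 3, ICH 1 or ICH 3.

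**Figure D2:**
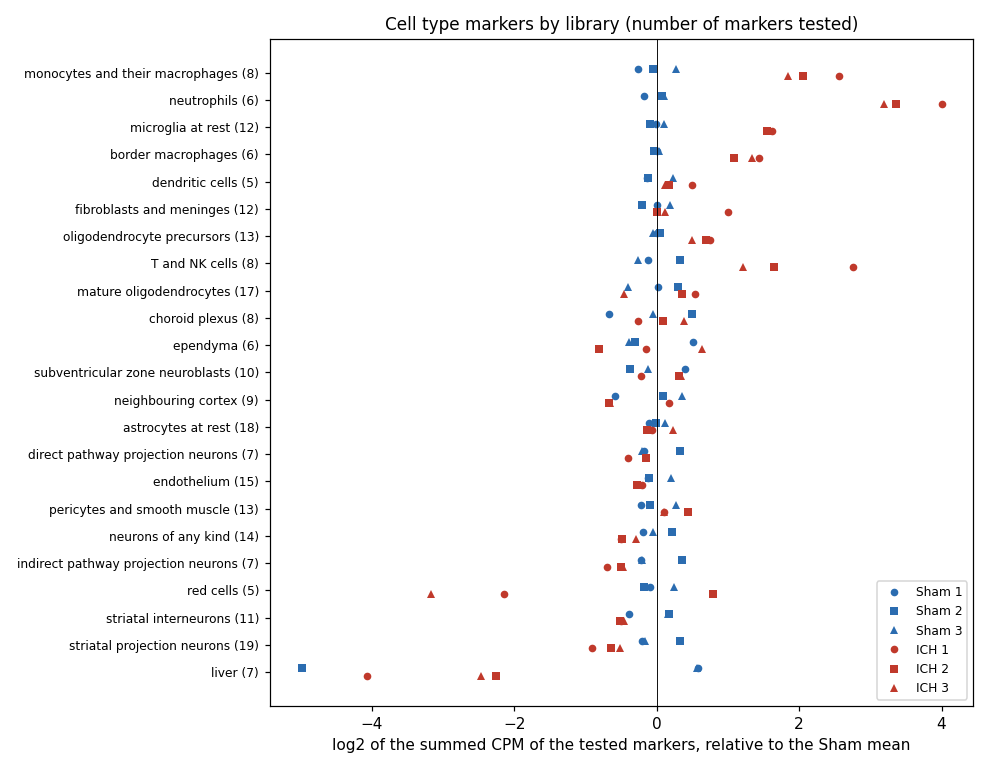
The summed CPM of the markers of each cell type is plotted for each library as a log2 ratio to the Sham mean, with blue symbols for Sham 1 to 3 and red symbols for ICH 1 to 3. The sums include markers that the filter removed, though the axis names tested markers. The neutrophil sum in ICH is mostly Lcn2, which reactive astrocytes also make, and Csf3r. The granule genes Mpo, Elane and Ltf had at most 1 count over either group. Microglia, monocyte and neutrophil markers lie above Sham in all 3 ICH libraries, projection neuron markers lie below, and the red cell and liver sums differ more between libraries of a group than between groups.

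All 21 tested genes of the Fc receptor and ITAM pathway rose (median 2.81, beside 11.4% of all genes and a median of 0.01). This pathway couples receptors for antibody and lipid ligands, through small adaptors, to the kinase Syk. The summed level was 159 to 184 CPM in Sham and 940 to 1120.2 CPM in ICH. The low-affinity antibody receptor Fcgr3a stood at 4.62, 3.63 and 3.47 CPM in Sham and 73.3, 82.99 and 69.2 CPM in ICH (4.26 ± 0.21, adjusted p = 4.67e-06). The adaptors Tyrobp, at 8.94, 7.46 and 9.77 CPM in Sham and 98.3, 77.96 and 79.2 CPM in ICH (3.29 ± 0.24, adjusted p = 2.29e-05), and Fcer1g, at 24.6, 24.8 and 23.6 CPM in Sham and 166, 124 and 142 CPM in ICH (2.56 ± 0.21, adjusted p = 2.9e-05), lay in narrow ranges within each group. The phosphatase Ptpn6, which restrains such signals, rose by 3.05 ± 0.26, and the exchange factor Vav1 rose by 3.04 ± 0.26. The count was 21 in each analysis that left out 1 library.

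The letters upstream of these genes were searched for GAGGAAGT, a core that the myeloid factor PU.1 is known to bind, on both strands in the 250 bases before the start (RefSeq, GRCr8). Of the 21 genes, 14 had an entry and 2 held the motif, beside 2.20% of tested genes with an entry. The windows of both are shown because they are the genes with that match, with the motif, which can read in either direction, in capitals.
Fcgr3a, chr13:85782560-85782607, plus strand: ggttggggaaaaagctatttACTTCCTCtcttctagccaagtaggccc
Vav1, chr9:2248883-2248930, plus strand: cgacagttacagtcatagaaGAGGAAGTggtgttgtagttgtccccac

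Microglial identity genes differed among themselves. Of 12 markers of resting microglia 7 rose and 0 fell (median 1.51). Cx3cr1, the fractalkine receptor, stood at 114, 99.7 and 103 CPM in Sham and 332, 335 and 336 CPM in ICH, with ICH libraries within a few CPM of each other (1.66 ± 0.18, adjusted p = 0.000104). Csf1r, the receptor that keeps microglia alive, stood at 206, 222 and 233 CPM in Sham and 774, 934 and 877 CPM in ICH (1.97 ± 0.21, adjusted p = 0.000127), and the microglial factor Sall1 rose by 1.46 ± 0.17. Tmem119, a surface protein of homeostatic microglia, stood at 44.1, 39.7 and 52.4 CPM in Sham and 51.7, 43.3 and 68.6 CPM in ICH. ICH 1 and ICH 2 lay inside the Sham range, and Tmem119 did not pass (0.27 ± 0.23, adjusted p = 0.488). The Fc receptor-like gene Fcrl2 showed a far larger change than the other members, from 1.44, 0.616 and 1.06 CPM to 78.8, 62.4 and 64.4 CPM (6.02 ± 0.37, adjusted p = 1.45e-05).

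Genes of incoming monocytes and of activated phagocytes had low Sham levels. Of 8 tested monocyte and macrophage markers 7 rose (median 2.96). Lysozyme (Lyz2) stood at 34.4, 33.4 and 49.6 CPM in Sham and 592, 389.7 and 357 CPM in ICH (3.51 ± 0.29, adjusted p = 3.03e-05), and Plac8 at 0.812, 0.479 and 1.203 CPM in Sham and 32.9, 26.9 and 9.67 CPM in ICH (4.79 ± 0.54, adjusted p = 0.000159). Both were highest in ICH 1 and lowest in ICH 3. Coagulation factor X (F10), which macrophages make as well as liver, stood at 3.37, 3.15 and 3.61 CPM in Sham and 29.4, 29.7 and 28.9 CPM in ICH (3.12 ± 0.31, adjusted p = 7.75e-05), with the 3 ICH libraries nearly equal. The monocyte chemokine receptor gene Ccr2 was removed by the filter, with 3 Sham counts and 17 ICH counts. Border macrophage markers rose in 3 of 6. Folr2, a folate receptor, led them at 1.4998, 1.64 and 1.49 CPM in Sham and 28.6, 13.3 and 24.3 CPM in ICH (3.83 ± 0.48, adjusted p = 0.000281). The haemoglobin scavenger receptor Cd163 stood at 2.81, 2.05 and 2.41 CPM in Sham and 5.07, 5.85 and 4.48 CPM in ICH, apart from Sham in every library but short of the threshold (1.08 ± 0.47, adjusted p = 0.139), and it passed without EDB 3, and with the 6 libraries alone (adjusted p between 0.0317 and 0.0336). The count of border macrophage markers was 1 without ICH 3 and 5 without EDB 3.

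Lymphocyte and granulocyte markers gave mixed values. Cd8a, a chain of the CD8 co-receptor, stood at 0.187, 0.0684 and 0 CPM in Sham and 35.97, 13.97 and 7.56 CPM in ICH (7.63 ± 0.83, adjusted p = 0.000128), in the order ICH 1, ICH 2, ICH 3. The partner chain Cd8b had 3 counts over the Sham libraries and 270 over the ICH libraries, a ratio of 78.1 with an exact 95% counting interval of 26.4 to 381.1. Of 8 tested T and NK cell markers 2 rose, Cd8a and Cd8b (25%, beside 11.4% of all genes). The T cell kinases Lck (0.57 ± 0.35, adjusted p = 0.307) and Zap70 (-1.08 ± 0.56, adjusted p = 0.219) did not pass. The filter removed 7 more. Among these, the T cell receptor partners Cd3d and Cd3g had 0 and 4 counts and 1 and 1 counts in Sham and ICH. Cd2 had 4 and 11, Klrk1 3 and 14, Gzma 1 and 4, Nkg7 3 and 2, and Prf1 11 and 5. Rat macrophages are known to be able to carry CD8, and the source of these CD8 transcripts was not tested. The fitted change of Cd8a ran from 6.80 without ICH 1 to 8.78 without Sham 1. Of 11 neutrophil markers 5 were removed by the filter. Mpo, Elane and Ltf, which encode granule proteins, had at most 1 count over either group, and Camp had 8 Sham counts and 3 ICH counts. The granule collagenase Mmp8 had 7 Sham counts and 66 ICH counts, of which 46 were in ICH 1. Of 6 tested neutrophil markers 4 rose: the growth factor receptor Csf3r, at 7.12, 7.25 and 8.78 CPM in Sham and 59.1, 51.3 and 49.5 CPM in ICH (2.79 ± 0.24, adjusted p = 4.1e-05), kept its call in all settings run. Lcn2, which reactive astrocytes also make, stood at 2.25, 4.04 and 2.48 CPM in Sham and 139, 78.1 and 63.5 CPM in ICH (4.999 ± 1.25, adjusted p = 0.0285) and was not called when any 1 library except EDB 1, EDB 2 and EDB 3 was left out, and without both Sham 2 and ICH 1, and with no filter or limma-voom (adjusted p between 0.055 and 0.167). S100a8 (2.40 ± 0.71, adjusted p = 0.0383) and S100a9 (2.02 ± 0.62, adjusted p = 0.0441) rose from low levels. S100a8 was not called when any 1 library except ICH 2, EDB 1 and EDB 2 was left out, and without both Sham 2 and ICH 1, and with limma-voom (adjusted p between 0.0507 and 0.154). S100a9 was not called when any 1 library except EDB 1 and EDB 2 was left out, and without both Sham 2 and ICH 1, and with limma-voom (adjusted p between 0.0525 and 0.257). The count of neutrophil markers was 1 without Sham 1, Sham 2, Sham 3, ICH 1 or ICH 3. The filter left 1 of 8 B cell markers, 5 of 8 dendritic cell markers and 1 of 7 mast cell markers. None of these rose, and Gata2, the only mast cell marker tested, fell (-0.81 ± 0.18, adjusted p = 0.0105). Of the same list, Cpa3, Tpsab1 and Cma1 had at most 1 count over either group, and Tpsb2, Fcer1a and Ms4a2 had 0. Which cells the Gata2 transcripts came from was not tested. Members that were removed had no test: in Sham and ICH, Cd79b had 3 and 22 counts, Xcr1 0 and 12, Clec9a 1 and 11, and Ccr7 10 and 29.

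Red cell transcripts did not separate the groups. For the alpha globin gene Hba-a2 the levels were 539, 510.4 and 689 CPM in Sham and 129, 997 and 65.2 CPM in ICH, and the haem synthesis enzyme Alas2 stood at 6.94, 5.68 and 9.84 CPM in Sham and 0.933, 13.6 and 0.540 CPM in ICH. ICH 2 lay above every Sham library, and ICH 1 and ICH 3 below. Neither passed, at -0.55 ± 0.99 and -0.59 ± 1.10 (adjusted p = 0.773 and 0.779), and without ICH 2 the changes were -2.60 and -3.37, with 3 of 5 red cell genes lower. These included Hba-a2 (adjusted p = 0.0267) and Alas2 (adjusted p = 0.0315). Reads of near-identical globin genes can be split between copies, so single globin values are uncertain.

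The transcription factors of the myeloid lineage rose in 12 of 15 (median 2.19). Spi1, which encodes PU.1, stood at 8.25, 9.17 and 10.2 CPM in Sham and 65.1, 50.3 and 46.01 CPM in ICH (2.55 ± 0.22, adjusted p = 4.17e-05) and Irf8, its partner in microglia, at 20.9, 23.7 and 17.1 CPM in Sham and 106, 121 and 90.9 CPM in ICH (2.36 ± 0.22, adjusted p = 6.01e-05). Cebpd, an acute-phase factor, had the smallest p of the list, with 14.1, 11.9 and 11.96 CPM in Sham and 60.1, 53.5 and 59.6 CPM in ICH (2.19 ± 0.14, adjusted p = 1.45e-05). Each ICH library exceeded each Sham library by a wide margin in these 3 genes. The liver X receptor Nr1h3 did not pass (0.29 ± 0.20, adjusted p = 0.366).

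**Figure D3:**
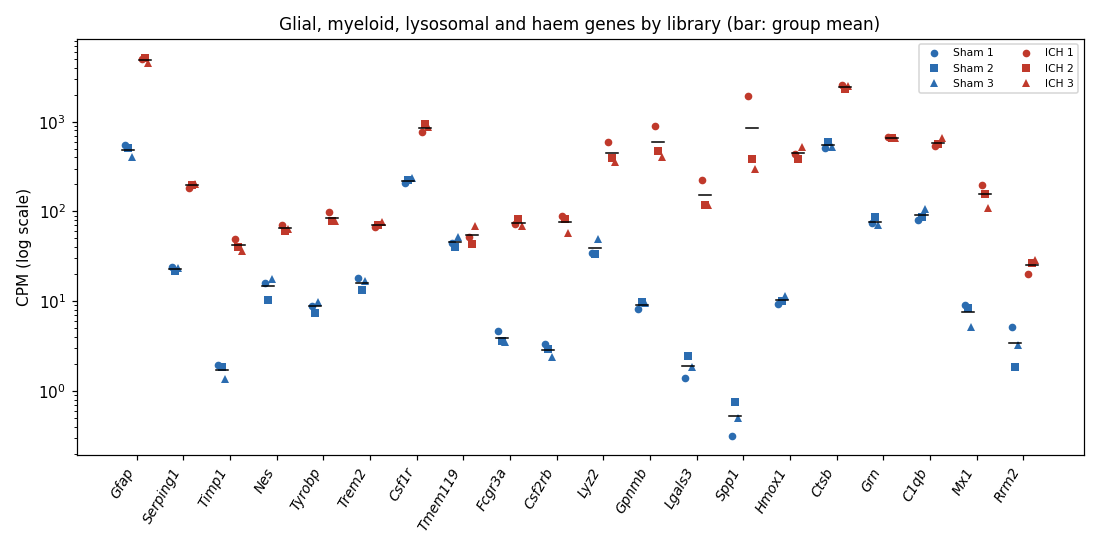
CPM on a log axis is plotted for 20 genes in each library, with blue symbols for Sham 1 to 3, red symbols for ICH 1 to 3 and a black bar at each group mean. The groups are apart in all except Tmem119, and Spp1 spreads most within ICH, from 295 to 1912 CPM.

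Among called genes with a symbol and no overlap between the groups, Gfap had the largest gain in reads, followed by Ctsb. Reads also reflect transcript length. Cathepsin B (Ctsb) stood at 514, 601 and 525 CPM in Sham and 2574, 2302 and 2501 CPM in ICH (2.17 ± 0.17, adjusted p = 2.42e-05) and cathepsin D (Ctsd) at 281, 347 and 271 CPM in Sham and 1768, 1313 and 1310.4 CPM in ICH (2.29 ± 0.18, adjusted p = 2.63e-05). Osteopontin (Spp1), an adhesive protein secreted by phagocytes, had 0.312, 0.752 and 0.496 CPM in Sham and 1912, 380.1 and 295 CPM in ICH (10.69 ± 1.06, adjusted p = 0.000182). ICH 1 lay far above ICH 2 and ICH 3, and without it the change was 9.34. Gpnmb, a glycoprotein of lysosome-rich phagocytes, stood at 8.12, 9.71 and 9.49 CPM in Sham and 892, 470.3 and 401 CPM in ICH (6.01 ± 0.42, adjusted p = 2.13e-05), and galectin-3 (Lgals3), which binds damaged membranes, at 1.37, 2.46 and 1.84 CPM in Sham and 222, 118 and 119 CPM in ICH (6.34 ± 0.53, adjusted p = 4.29e-05). Beta-2-microglobulin (B2m), the light chain of class I molecules, stood at 418, 344 and 509 CPM in Sham and 1454, 843 and 997 CPM in ICH (1.37 ± 0.21, adjusted p = 0.00107). ICH 1 was the highest library in each of these 6 genes.

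Of 27 lysosomal genes 21 rose and 0 fell (median 1.20). The proteases and their helpers led: legumain (Lgmn) stood at 109, 120.4 and 109.9 CPM in Sham and 629, 534 and 497 CPM in ICH (2.29 ± 0.16, adjusted p = 2.01e-05), cathepsin Z (Ctsz) at 30.8, 35.6 and 36.8 CPM in Sham and 320, 300.4 and 303 CPM in ICH (3.16 ± 0.23, adjusted p = 2.29e-05) and progranulin (Grn) at 73.6, 87.01 and 70.4 CPM in Sham and 674, 661 and 666 CPM in ICH (3.11 ± 0.23, adjusted p = 2.29e-05). The beta-galactosidase Glb1 rose by 1.53 ± 0.11. The membrane glycoprotein Cd68, a usual stain for phagocytes and chosen for that role, stood at 2.87, 3.28 and 3.75 CPM in Sham and 128, 85.8 and 92.6 CPM in ICH (4.95 ± 0.54, adjusted p = 0.000159). The proton pump that acidifies lysosomes has several subunits in the list, and not all are named here. Atp6v0c (-0.18 ± 0.16, adjusted p = 0.517) and Atp6v1b2 (-0.14 ± 0.16, adjusted p = 0.618) overlapped between groups and did not pass. They were named as abundant members without a call, and the other 25 tested genes of the list had positive changes. The subunit Atp6v0d2 was removed by the filter, with 1 Sham count and 1 ICH count. 

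Lipid handling genes rose in 11 of 18 (median 1.27). The lipid receptor Trem2 stood at 17.9, 13.2 and 16.6 CPM in Sham and 67.7, 69.97 and 75.9 CPM in ICH (2.16 ± 0.20, adjusted p = 5.86e-05). Enzymes and coats of lipid droplets were higher: Soat1, which esterifies cholesterol, at 30.4, 23.9 and 23.2 CPM in Sham and 93.9, 80.03 and 75.3 CPM in ICH (1.68 ± 0.14, adjusted p = 3.79e-05), and perilipin 2 (Plin2), at 12.1, 9.303 and 11.6 CPM in Sham and 113, 59.3 and 57.4 CPM in ICH (2.79 ± 0.27, adjusted p = 7.07e-05). The cholesterol exporter Abca1 rose by 1.71 ± 0.22 and the engulfment receptor Axl by 1.34 ± 0.17. Apolipoprotein E (Apoe), the main lipid carrier of brain, stood at 4378, 4991 and 4893 CPM in Sham and 6513, 4793 and 5429.5 CPM in ICH, with overlap (0.23 ± 0.18, adjusted p = 0.439).

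Cholesterol synthesis had 3 of 17 genes lower (17.6%, beside 7.30% of all genes), 0 higher and a median of -0.40. The sterol oxidase Msmo1 stood at 128, 125 and 117 CPM in Sham and 78.7, 79.7 and 55.9 CPM in ICH (-0.79 ± 0.20, adjusted p = 0.0201), with ICH 3 the lowest. Msmo1 was not called without ICH 3 or both Sham 2 and ICH 1 (adjusted p between 0.0694 and 0.0732), Srebf2, the master regulator, was not called without Sham 1, Sham 2, ICH 1, ICH 3 or both Sham 2 and ICH 1, and with library size scaling (adjusted p between 0.061 and 0.102), and Insig1 was not called when any 1 library except EDB 3 was left out, and without both Sham 2 and ICH 1, and with library size scaling or the 6 libraries alone (adjusted p between 0.0504 and 0.125). The count was 1 without Sham 1, Sham 2 or ICH 1 and 0 without ICH 3. Among fallen genes with a symbol and no overlap between the groups, the stearoyl desaturase Scd2 had the largest loss in reads after Mt-nd1. Scd2 fell from 6209, 8009.7 and 6719.7 CPM to 5066, 4497 and 3753 CPM (-0.65 ± 0.17, adjusted p = 0.0234), and was not called without Sham 3, ICH 2 or ICH 3, and with the 6 libraries alone (adjusted p between 0.051 and 0.0799).

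Complement genes rose in 16 of 19 (median 1.92). Complement tags debris and synapses for engulfment. The initiating chains C1qa, at 124, 117 and 119.6 CPM in Sham and 516, 713 and 709 CPM in ICH (2.43 ± 0.21, adjusted p = 3.79e-05), and C1qb, at 80.99, 86.8 and 107 CPM in Sham and 539.5, 558 and 661 CPM in ICH (2.68 ± 0.22, adjusted p = 3.03e-05), come from microglia, and ICH 1 was the lowest ICH library in both. The protease C1r stood at 25.6, 22.4 and 26.1 CPM in Sham and 83.3, 73.9 and 66.4 CPM in ICH (1.59 ± 0.13, adjusted p = 2.68e-05) and the C1 inhibitor Serping1 at 23.8, 21.6 and 23.6 CPM in Sham and 185, 198 and 203 CPM in ICH (3.08 ± 0.20, adjusted p = 1.99e-05), so an activating enzyme and its inhibitor were both higher. The receptor for C3a, C3ar1, stood at 5.62, 4.04 and 6.37 CPM in Sham and 66.6, 41.4 and 60.2 CPM in ICH (3.39 ± 0.29, adjusted p = 4.11e-05). C4b (0.19 ± 0.19, adjusted p = 0.556) and the membrane inhibitor Cd59 (0.08 ± 0.23, adjusted p = 0.873) did not pass.

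Chemokine genes had calls in both directions: of 17, 10 rose and 2 fell (median 2.02). Ccl2, which draws monocytes, had 2 Sham counts and 311 ICH counts, 135 times as many after scaling, with an exact counting interval of 37.05 to 1119. In ICH its level was 10.8, 4.03 and 3.29 CPM, with ICH 1 well above the others. Ccl7, its neighbour and relative, had 2 and 126 counts, a ratio of 54.7 (14.8 to 456.4). The scavenging chemokine Cxcl16 stood at 6.87, 6.29 and 4.96 CPM in Sham and 41.1, 34.5 and 33.3 CPM in ICH (2.58 ± 0.18, adjusted p = 2.01e-05). Cxcl12, which guides stem cells and interneurons, fell from 178, 165 and 241 CPM to 81.98, 62.5 and 79.5 CPM (-1.38 ± 0.16, adjusted p = 0.000182). Its decoy receptor Ackr3 also fell (-0.94 ± 0.22, adjusted p = 0.0133) and was not called without ICH 1 or both Sham 2 and ICH 1 (adjusted p between 0.0549 and 0.0785). Fractalkine (Cx3cl1), made by neurons, stood at 769, 1234 and 644 CPM in Sham and 648, 684 and 762 CPM in ICH and did not pass (-0.34 ± 0.21, adjusted p = 0.3). The count of risen chemokine genes was 6 without Sham 1.

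Of 29 interleukin, colony-stimulating factor and TNF genes 16 rose and 0 fell (median 1.40), and the 5 with the smallest p were all receptors. The common beta chain Csf2rb stood at 3.31, 2.94 and 2.41 CPM in Sham and 90.1, 82.7 and 57.2 CPM in ICH (4.72 ± 0.37, adjusted p = 2.62e-05). The TNF receptors Tnfrsf1a, at 17.7, 19.9 and 18.9 CPM in Sham and 54.2, 57.3 and 53.6 CPM in ICH (1.55 ± 0.14, adjusted p = 5.86e-05), and Tnfrsf1b, at 5.75, 7.73 and 7.22 CPM in Sham and 23.6, 25.04 and 25.98 CPM in ICH (1.85 ± 0.17, adjusted p = 6.36e-05), had ICH values within a narrow band. The interleukin-4 receptor Il4r rose by 2.07 ± 0.22. The shared subunit of the interleukin-6 family, Il6st, overlapped (0.38 ± 0.17, adjusted p = 0.161).

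Interferon-induced genes rose in 21 of 25 (median 1.47), and in 20 to 21 of them with 1 library left out. Mx1, an antiviral GTPase, stood at 8.999, 8.41 and 5.17 CPM in Sham and 199, 157 and 109.8 CPM in ICH (4.36 ± 0.42, adjusted p = 6.78e-05) and the nucleic acid sensor Zbp1 at 0.937, 1.09 and 0.496 CPM in Sham and 24.8, 26.6 and 21.7 CPM in ICH (4.83 ± 0.43, adjusted p = 4.74e-05). Stat2, a carrier of the interferon signal, stood at 52.1, 55.6 and 43.04 CPM in Sham and 139, 149.7 and 113 CPM in ICH (1.42 ± 0.15, adjusted p = 0.000118). The receptor chains did not pass, with 0.15 ± 0.10 for Ifnar1 (adjusted p = 0.33) and 0.41 ± 0.15 for Ifnar2 (adjusted p = 0.0784), and the latter passed with library size scaling (adjusted p = 0.044). ICH 3 had the lowest ICH value in Mx1, Zbp1 and Stat2.

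The 250 bases before the start of these genes were searched for GAAANNGAA, the core that interferon regulatory factors are known to recognise, on both strands. Of the 25 genes 19 had a RefSeq entry, and 10 of those held the motif (52.6%), beside 6.09% of tested genes with an entry and 7.99% of all 27457 entries. A match is a description of letters and not a measured binding site. The windows of 6 risen genes are printed as examples of the motif at different distances from the start. Of the others with the motif, Ifi27, Gbp5 and Ifih1 rose and Ifit3 did not pass. Gbp5 was not called without both Sham 2 and ICH 1 (adjusted p = 0.0718). Ifih1 was not called without Sham 2, Sham 3, ICH 1 or both Sham 2 and ICH 1. With limma-voom it was not called either (adjusted p between 0.0589 and 0.209 over these settings). Coordinates are those of GRCr8, and motif letters are in capitals. TTCNNTTTC is the reading of the same motif on the other strand, and adjoining capitals are overlapping matches.
Oas1a, chr12:41330405-41330459, plus strand: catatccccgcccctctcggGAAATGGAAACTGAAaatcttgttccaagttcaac
Bst2, chr16:18255064-18255118, minus strand: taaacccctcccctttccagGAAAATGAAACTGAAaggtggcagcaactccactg
Irf7, chr1:205800063-205800111, minus strand: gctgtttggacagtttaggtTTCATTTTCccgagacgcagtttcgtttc
Ifitm3, chr1:205541774-205541822, minus strand: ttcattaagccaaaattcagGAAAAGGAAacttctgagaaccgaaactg
Gbp2, chr2:234005677-234005725, plus strand: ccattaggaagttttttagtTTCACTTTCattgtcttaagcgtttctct
Rsad2, chr6:48788238-48788286, minus strand: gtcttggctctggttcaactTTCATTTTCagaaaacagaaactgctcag

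Each of these 6 genes was apart between the groups, and apart from Oas1a they were named because of their windows. Oas1a, which senses double-stranded RNA, stood at 17.2, 19.5 and 12.3 CPM in Sham and 57.4, 62.98 and 46.8 CPM in ICH (1.77 ± 0.20, adjusted p = 0.000148). Irf7, which amplifies the response, stood at 69.9, 79.4 and 48.4 CPM in Sham and 189.7, 249 and 179.8 CPM in ICH (1.64 ± 0.23, adjusted p = 0.000543), and tetherin (Bst2), which holds budding viruses at the cell surface, at 26.9, 20.7 and 22.9 CPM in Sham and 64.7, 66.6 and 57.4 CPM in ICH (1.42 ± 0.16, adjusted p = 0.000174). Ifitm3, a block to viral entry, stood at 16.4, 16.8 and 19.04 CPM in Sham and 41.7, 42.03 and 31.4 CPM in ICH (1.14 ± 0.19, adjusted p = 0.00216). The guanylate-binding protein Gbp2 rose by 2.19 ± 0.31 and viperin (Rsad2) by 2.30 ± 0.38. In Oas1a and Bst2 the capitals hold overlapping copies of the motif.

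Antigen presentation rose in 11 of 17 genes (median 1.99). On the class I side, the immunoproteasome subunit Psmb8 stood at 12.5, 11.1 and 9.91 CPM in Sham and 48.6, 44.9 and 39.9 CPM in ICH (1.99 ± 0.16, adjusted p = 2.72e-05) and the peptide transporter Tap1 at 10.2, 10.7 and 7.29 CPM in Sham and 48.2, 43.4 and 32.1 CPM in ICH (2.13 ± 0.21, adjusted p = 8.05e-05). On the class II side, the peptide editors RT1-DMa and RT1-DMb rose by 1.99 ± 0.20 and 2.42 ± 0.23. The invariant chain Cd74 stood at 7.19, 12.7 and 6.73 CPM in Sham and 56.3, 21.1 and 10.7 CPM in ICH and the class II chain RT1-Da at 2.12, 1.78 and 3.26 CPM in Sham and 15.3, 5.097 and 3.67 CPM in ICH. ICH 1 stood far above ICH 2 and ICH 3 in both, neither passed (adjusted p = 0.0564 and 0.0518), and without ICH 1 the changes were 0.84 and 0.88. Cd74 passed without ICH 3, EDB 2 or EDB 3, and with library size scaling (adjusted p between 0.0137 and 0.0497). RT1-Da passed without ICH 3 or EDB 2, and with library size scaling or DESeq2 (adjusted p between 0.0102 and 0.0412). RT1 genes resemble each other closely, so reads may be shared between them.

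Astrocyte genes were counted in a reactive and a resting list, and the difference between the lists was not tested. Of 24 reactive genes 16 rose, 0 fell and 8 did not pass (median 1.75). Gfap stood at 544, 506 and 403 CPM in Sham and 5044, 5165 and 4544 CPM in ICH (3.34 ± 0.18, adjusted p = 4.67e-06). The stem cell filament nestin (Nes) stood at 16.1, 10.3 and 17.6 CPM in Sham and 70.2, 60.3 and 64.4 CPM in ICH (2.15 ± 0.21, adjusted p = 6.78e-05), the heat shock protein Hspb1 at 8.81, 8.76 and 8.85 CPM in Sham and 69.1, 79.3 and 76.5 CPM in ICH (3.09 ± 0.29, adjusted p = 6.46e-05), and the protease inhibitor Timp1 at 1.94, 1.85 and 1.35 CPM in Sham and 49.5, 40.02 and 36.2 CPM in ICH (4.60 ± 0.37, adjusted p = 2.9e-05). In each the 3 ICH libraries lay close together. Serpina3n, a common marker of reactive astrocytes in rodents and named after its values were seen, stood at 7.44, 0 and 7.57 CPM in Sham and 0, 1.07 and 0.540 CPM in ICH. Its highest values were in Sham 1 and Sham 3, which also held the most albumin transcripts (Alb, 166, 3.21 and 165 CPM in Sham and 2.27, 21.8 and 18.2 CPM in ICH). It did not pass (-3.22 ± 1.40, adjusted p = 0.145), and it passed without Sham 2 or both Sham 2 and ICH 1 (adjusted p between 0.0351 and 0.0482). The part of the Sham libraries' liver transcripts in this value was not tested.

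Among 18 genes of resting astrocytes 3 rose, 3 fell and 12 did not pass (median -0.13). Each direction made 16.7% of this list, beside 11.4% higher and 7.30% lower of all genes tested. The gap junction partners went apart: connexin 43 (Gja1) stood at 622, 528 and 629.8 CPM in Sham and 816, 832 and 1048 CPM in ICH (0.60 ± 0.14, adjusted p = 0.0107), and connexin 30 (Gjb6) at 19.2, 32.1 and 34.5 CPM in Sham and 17.2, 12.5 and 16.2 CPM in ICH (-0.90 ± 0.22, adjusted p = 0.0148). Gjb6 was not called without Sham 3, ICH 2 or both Sham 2 and ICH 1 (adjusted p between 0.0561 and 0.0582). Glutamine synthetase (Glul), which recycles glutamate, stood at 2080.4, 2695 and 2558 CPM in Sham and 3668, 3387 and 5006 CPM in ICH (0.72 ± 0.18, adjusted p = 0.0166), with ICH 3 the highest, and was not called without Sham 1 or ICH 3 (adjusted p between 0.0561 and 0.0858). The glycolytic enzyme Aldoc fell (-0.62 ± 0.18, adjusted p = 0.0317) and was not called without Sham 2, Sham 3, ICH 1, ICH 2 or both Sham 2 and ICH 1, and with library size scaling or the 6 libraries alone (adjusted p between 0.0519 and 0.131). The count of rises was 1 without Sham 1 or ICH 3, and the count of falls 0 without Sham 3 or ICH 2 and 1 without ICH 1.

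Precursors and mature cells of the oligodendrocyte line differed in how many markers passed, without a test of that difference. Of 13 precursor genes 7 rose and 0 fell (median 0.62). Gpr17, present on committed precursors, stood at 141, 167 and 139 CPM in Sham and 313, 300.3 and 284 CPM in ICH (1.01 ± 0.16, adjusted p = 0.00143), and Bcas1, present in cells starting to make myelin, at 394, 437 and 389 CPM in Sham and 892, 658 and 647 CPM in ICH (0.85 ± 0.16, adjusted p = 0.00347). Lhfpl3 rose by 1.40 ± 0.29. The count was 4 without Sham 1 or ICH 2. Of 17 mature markers 2 rose, a share of 11.8% beside 11.4% of all genes tested. Aspa, which frees acetate for myelin lipid, stood at 17.1, 16.2 and 16.5 CPM in Sham and 44.8, 31.8 and 28.2 CPM in ICH (1.07 ± 0.18, adjusted p = 0.00236), and Sox10, a factor of the whole lineage, rose (0.67 ± 0.21, adjusted p = 0.0464) but was not called when any 1 library except Sham 2 and ICH 3 was left out, and without both Sham 2 and ICH 1, and with RLE scaling, limma-voom or the 6 libraries alone (adjusted p between 0.0512 and 0.182). Myelin basic protein (Mbp) stood at 13886, 18218 and 10161 CPM in Sham and 17305, 16479.7 and 9584 CPM in ICH (0.04 ± 0.27, adjusted p = 0.948), and the groups overlapped. Sham 3 and ICH 3 were the lowest libraries of their groups for Mbp and Cldn11. Cldn11 did not pass (0.85 ± 0.31, adjusted p = 0.0823) but passed without Sham 2 or ICH 3, and with DESeq2 (adjusted p between 0.0308 and 0.0351). The count of mature markers was 4 without Sham 2, 5 without ICH 3 and 1 with any other library left out.

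Among vessel markers, most endothelial genes were short of the threshold. Of 15 endothelial genes 3 fell (20%, beside 7.30% of all genes) and 0 rose, and 13 had a negative change (median -0.42). The VEGF receptor Flt1 led at 117, 113 and 189 CPM in Sham and 88.3, 76.3 and 80.8 CPM in ICH (-0.77 ± 0.18, adjusted p = 0.0134), with Sham 3 well above the other Sham libraries. The glucose transporter Slc2a1 (-0.22 ± 0.14, adjusted p = 0.328) and the clotting carrier Vwf (0.30 ± 0.20, adjusted p = 0.34) did not pass. The count was 1 without Sham 3, ICH 1, ICH 3 or EDB 1. Among 13 mural cell genes 5 fell (38.5%, beside 7.30% of all genes) and 2 rose (15.4%, beside 11.4%). Vitronectin (Vtn), which brain pericytes secrete, stood at 57.1, 58.8 and 72.9 CPM in Sham and 33.2, 32.3 and 30.8 CPM in ICH (-0.97 ± 0.14, adjusted p = 0.000664), and the pericyte receptor Notch3 at 59.7, 67.9 and 74.1 CPM in Sham and 33.8, 40.8 and 41.5 CPM in ICH (-0.80 ± 0.16, adjusted p = 0.00549). In the opposite direction the aminopeptidase Anpep, shared by pericytes and myeloid cells, stood at 6.999, 7.87 and 11.2 CPM in Sham and 59.4, 30.6 and 18.2 CPM in ICH (2.06 ± 0.38, adjusted p = 0.00342), and the contractile protein Tagln at 45.4, 66.9 and 55.8 CPM in Sham and 193, 384 and 269 CPM in ICH (2.33 ± 0.50, adjusted p = 0.00947). Tagln was not called without Sham 2, Sham 3 or both Sham 2 and ICH 1 (adjusted p between 0.0511 and 0.0758). The smooth muscle myosin Myh11 fell (-1.15 ± 0.27, adjusted p = 0.0125) and was not called without Sham 3, ICH 1 or both Sham 2 and ICH 1 (adjusted p between 0.052 and 0.0888). The counts were 2 without Sham 3 and 3 without ICH 3 for falls and 1 without Sham 2 or Sham 3 for rises.

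Matrix genes rose in 11 of 37 and fell in 1 (median 0.60). The basement membrane collagen Col4a1 stood at 73.8, 79.8 and 80.6 CPM in Sham and 164, 126 and 118 CPM in ICH (0.80 ± 0.15, adjusted p = 0.00356), the TGF-beta-induced protein Tgfbi at 5.06, 8.07 and 7.22 CPM in Sham and 33.1, 33.7 and 18.3 CPM in ICH (2.06 ± 0.27, adjusted p = 0.000458) and thrombospondin 1 (Thbs1) at 0.937, 4.86 and 2.902 CPM in Sham and 50.3, 16.2 and 18.2 CPM in ICH (3.29 ± 0.56, adjusted p = 0.00227). Thbs1 varied 5-fold among the Sham libraries, and its change ran from 2.58 without ICH 1 to 3.89 without Sham 2. Fibrillar collagen of scar, Col3a1, stood at 10.6, 9.23 and 11.5 CPM in Sham and 62.2, 21.1 and 14.4 CPM in ICH. ICH 1 held most of it, the gene did not pass (1.64 ± 0.59, adjusted p = 0.0815), and its change was 0.77 without ICH 1. Col3a1 passed without ICH 3 or EDB 1, and with the 6 libraries alone (adjusted p between 0.0358 and 0.0432). The fibroblast matrix protein Postn had 12.2, 0.944 and 0.810 CPM in ICH with the same order (5.07 ± 1.31, adjusted p = 0.021), changed by 2.67 without ICH 1 and 9.22 without Sham 1, and was not called without Sham 2, Sham 3, ICH 1 or both Sham 2 and ICH 1, and with limma-voom (adjusted p between 0.0553 and 0.176). The count of risen matrix genes was 7 without Sham 3 and 6 without ICH 1. Col18a1, source of endostatin, fell (-0.59 ± 0.15, adjusted p = 0.0183) and was not called without Sham 2, ICH 1 or both Sham 2 and ICH 1 (adjusted p between 0.052 and 0.113).

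Neurocan (Ncan), a proteoglycan of the glial scar, stood at 162, 183 and 159 CPM in Sham and 432, 469 and 545 CPM in ICH (1.52 ± 0.12, adjusted p = 3.05e-05), while brevican (Bcan), its relative in perineuronal nets, stood at 735, 749 and 718 CPM in Sham and 568, 613 and 701 CPM in ICH (-0.23 ± 0.13, adjusted p = 0.278). Of 10 such genes 2 rose, and the other, versican (Vcan), rose (1.31 ± 0.39, adjusted p = 0.0376) and was not called without Sham 1, Sham 2, Sham 3, ICH 1, EDB 1 or both Sham 2 and ICH 1, and with no filter or limma-voom (adjusted p between 0.0517 and 0.243).

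Protease genes rose in 14 of 29 and fell in 2 (median 0.80). The plasminogen activators differed. Urokinase (Plau) stood at 0.812, 0.616 and 0.425 CPM in Sham and 37.2, 14.5 and 13.7 CPM in ICH (5.11 ± 0.49, adjusted p = 6.78e-05), its receptor Plaur at 0.375, 0.752 and 0.354 CPM in Sham and 6.65, 5.79 and 3.46 CPM in ICH (3.40 ± 0.52, adjusted p = 0.00105), and tissue plasminogen activator (Plat) at 151, 144 and 170.2 CPM in Sham and 136, 142 and 153 CPM in ICH (-0.11 ± 0.19, adjusted p = 0.759). Plau was highest in ICH 1, and its change was 4.49 without that library. The metalloproteinase Mmp19 rose by 2.83 ± 0.28, and the neuronal membrane-type enzyme Mmp24 fell (-0.63 ± 0.14, adjusted p = 0.00812). Mmp17 fell too (-0.70 ± 0.18, adjusted p = 0.0194) and was not called without ICH 1, ICH 2, ICH 3 or both Sham 2 and ICH 1 (adjusted p between 0.0543 and 0.0693). The count of falls was 1 without ICH 1, ICH 2 or ICH 3.

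Leukocyte integrins led the adhesion genes, of which 12 of 23 rose and 0 fell (median 0.87). The beta-2 chain Itgb2 stood at 20.4, 23.9 and 21.7 CPM in Sham and 136, 92.3 and 80.2 CPM in ICH (2.22 ± 0.23, adjusted p = 9.42e-05). Its partners Itgal, at 3.94, 2.67 and 5.88 CPM in Sham and 55.4, 51.4 and 41.1 CPM in ICH (3.57 ± 0.37, adjusted p = 9.43e-05), and Itgam, at 14.6, 20.999 and 34.7 CPM in Sham and 152, 149 and 126 CPM in ICH (2.60 ± 0.31, adjusted p = 0.000201), rose as well. Integrin beta-1 (Itgb1), present on most cells, stood at 106, 63.2 and 112 CPM in Sham and 180, 129.7 and 123 CPM in ICH and did not pass (0.62 ± 0.22, adjusted p = 0.0782). It passed with DESeq2 (adjusted p = 0.0446). Among 20 galectins, annexins and S100 proteins 14 rose (median 1.49), with Lgals3bp at 56.4, 55.2 and 41.8 CPM in Sham and 349, 311 and 299 CPM in ICH (2.64 ± 0.14, adjusted p = 4.67e-06) and S100a4 at 2.87, 1.57 and 0.779 CPM in Sham and 35.7, 54.99 and 40.3 CPM in ICH (4.62 ± 0.53, adjusted p = 0.000184). The astrocytic S100b was not among them (-0.35 ± 0.14, adjusted p = 0.119), and it passed with DESeq2 (adjusted p = 0.033).

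Growth and repair signals gave few calls. Of 30 TGF-beta and BMP genes 3 rose (10%, near the 11.4% of all genes) and 1 fell (median 0.07). The ligand Tgfb1 stood at 20.7, 23.3 and 22.4 CPM in Sham and 87.5, 73.6 and 71.8 CPM in ICH (1.81 ± 0.22, adjusted p = 0.000231) and its receptor Tgfbr2 at 49.6, 52.8 and 60.7 CPM in Sham and 171, 125 and 114 CPM in ICH (1.33 ± 0.16, adjusted p = 0.000201), while the endothelial receptor Acvrl1 stood at 30.3, 34.9 and 38.6 CPM in Sham and 21.1, 20.4 and 19.3 CPM in ICH (-0.77 ± 0.17, adjusted p = 0.0106). Of 28 growth factor genes 1 rose (3.57%, beside 11.4% of all genes) and 4 fell (14.3%, beside 7.30%), with a median of 0.08. Igf1, a product of microglia, stood at 2.19, 0.547 and 3.11 CPM in Sham and 15.7, 5.66 and 8.37 CPM in ICH (2.34 ± 0.57, adjusted p = 0.0155) and was not called without ICH 1 or both Sham 2 and ICH 1 (adjusted p between 0.0644 and 0.0697). Vegfa fell (-0.66 ± 0.20, adjusted p = 0.0402) and was not called without Sham 3, ICH 1, ICH 3 or EDB 2, and with library size scaling or the 6 libraries alone (adjusted p between 0.051 and 0.143). The count of rises was 0 without ICH 1, 2 without ICH 3, EDB 2 or EDB 3 and 4 without EDB 1. The count of falls was 2 without Sham 2, Sham 3 or ICH 1 and 1 without ICH 3.

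**Figure D4:**
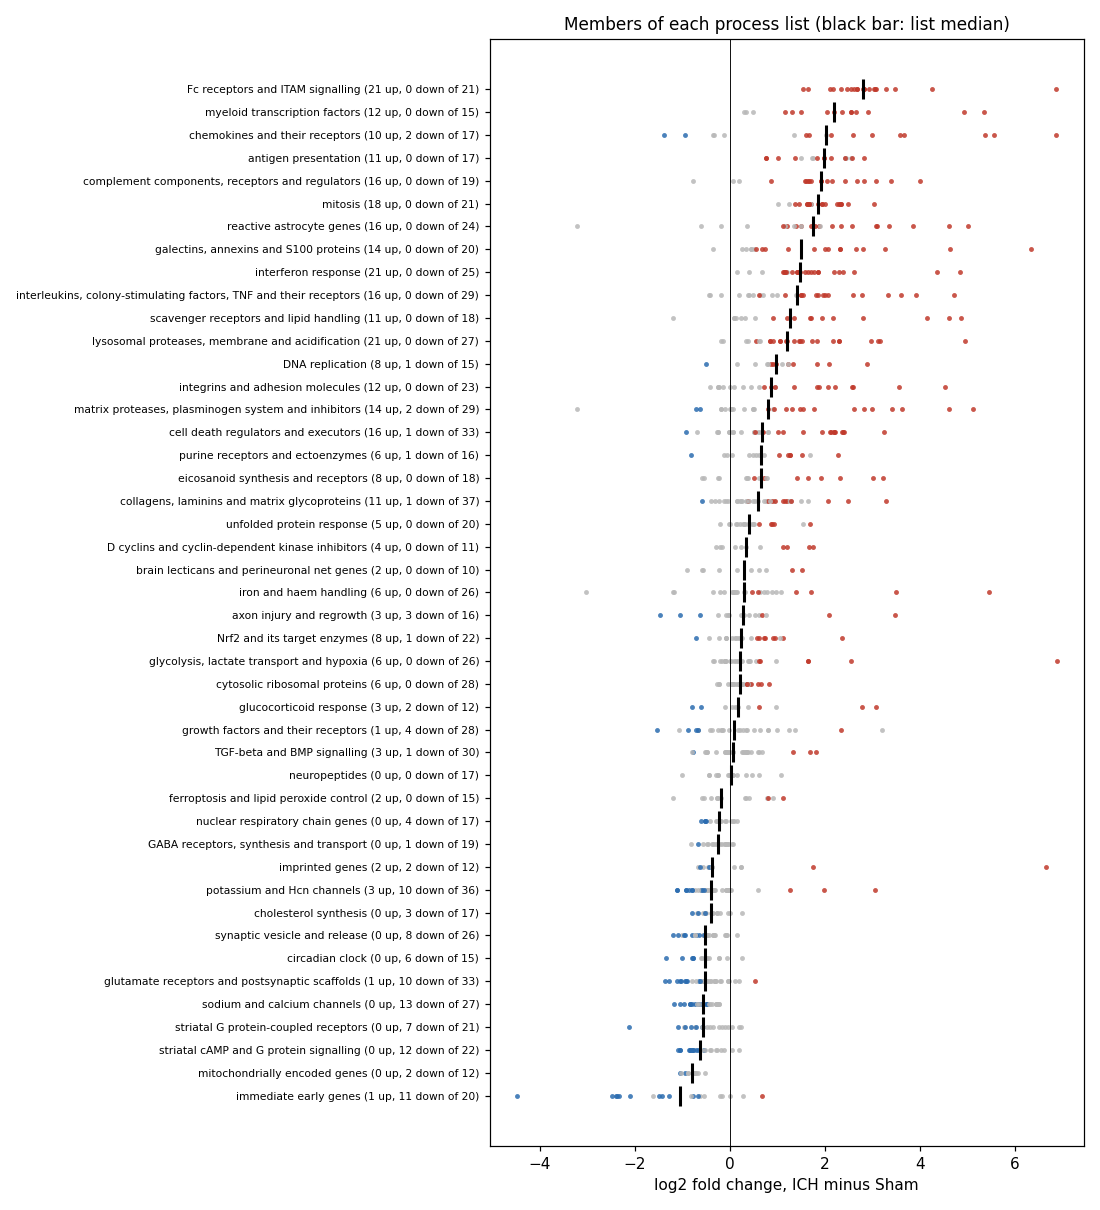
Each point is a tested member of a process list, placed by its log2 fold change, ICH minus Sham, in red where it rose, blue where it fell and grey where it did not pass, and a black bar marks each list's median. Lists are ordered by median, from immediate early genes (-1.04) to the Fc receptor and ITAM pathway (2.81).

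Genes that handle haem and iron rose in 6 of 26, with 0 lower (median 0.30). Haem oxygenase 1 (Hmox1) stood at 9.25, 9.99 and 11.5 CPM in Sham and 437, 388 and 519 CPM in ICH (5.45 ± 0.48, adjusted p = 5.86e-05), highest in ICH 3. The phagosomal iron exporter Slc11a1 stood at 5.56, 6.16 and 4.88 CPM in Sham and 59.4, 62.9 and 66.05 CPM in ICH (3.50 ± 0.34, adjusted p = 6.78e-05). Cytosolic aconitase (Aco1), which doubles as an iron sensor, stood at 63.9, 67.2 and 53.1 CPM in Sham and 91.1, 91.4 and 94.7 CPM in ICH (0.59 ± 0.12, adjusted p = 0.00517). The ferritin heavy chain Fth1, the iron store and named for that role, stood at 1665, 1680.4 and 1474 CPM in Sham and 2152, 2353 and 2112 CPM in ICH (0.46 ± 0.14, adjusted p = 0.0469), a small change that was not called when any 1 library except Sham 2 and EDB 2 was left out, and without both Sham 2 and ICH 1, and with RLE scaling, no filter or the 6 libraries alone (adjusted p between 0.0571 and 0.196). Transferrin (Tf), made by oligodendrocytes in brain, stood at 1067, 1596 and 725 CPM in Sham and 2881, 2391 and 1354 CPM in ICH, overlapped and did not pass (0.97 ± 0.32, adjusted p = 0.0574), and it passed without Sham 2 or ICH 3, and with library size scaling or DESeq2 (adjusted p between 0.014 and 0.0321). The transferrin receptor Tfrc stood at 51.4, 30.7 and 58.05 CPM in Sham and 35.6, 16.4 and 9.61 CPM in ICH (-1.19 ± 0.40, adjusted p = 0.0601). ICH 1 lay above the lowest Sham library, and Tfrc passed without ICH 1 or both Sham 2 and ICH 1, and with DESeq2 or limma-voom (adjusted p between 0.00166 and 0.0309). The count of risen iron genes was 3 without ICH 1.

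The antioxidant programme of Nrf2 rose in 8 of 22 and fell in 1 (median 0.24). Peroxiredoxin 1 (Prdx1) stood at 72.4, 71.1 and 65.3 CPM in Sham and 149, 123 and 121 CPM in ICH (0.91 ± 0.12, adjusted p = 0.000533) and Gclm, part of the enzyme that limits glutathione synthesis, at 9.25, 7.93 and 9.49 CPM in Sham and 13.8, 15.5 and 14.6 CPM in ICH (0.72 ± 0.16, adjusted p = 0.01). Mafg, a partner of Nrf2 on DNA, fell (-0.70 ± 0.11, adjusted p = 0.00159). The adaptor Sqstm1, also a target, overlapped (-0.07 ± 0.17, adjusted p = 0.833). The count of rises was 4 without Sham 1 and 5 without Sham 2, ICH 2 or ICH 3. The 250 bases upstream were searched on both strands for TGACNNNGC, the antioxidant response element. It overlaps the AP-1 motif TGANTCA where its middle letters are TCA. Of 21 members with an entry 4 held it (19%), beside 12.5% of tested genes with an entry. Those that rose are shown, with the element in capitals and read on the other strand in both.
Gclm, chr2:213031943-213031991, plus strand: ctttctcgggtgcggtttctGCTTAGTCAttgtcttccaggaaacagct
Prdx1, chr5:135383751-135383799, plus strand: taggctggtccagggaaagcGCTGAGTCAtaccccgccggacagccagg

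Genes of ferroptosis, an iron-driven form of cell death, showed 2 rises among 15 (13.3%, near the 11.4% of all genes, median -0.18). The spermidine acetyltransferase Sat1 stood at 102, 72.3 and 95.7 CPM in Sham and 142, 156 and 170.4 CPM in ICH (0.80 ± 0.17, adjusted p = 0.00724). The cystine carrier Slc7a11 stood at 4.56, 4.104 and 7.504 CPM in Sham and 9.74, 12.5 and 12.7 CPM in ICH (1.11 ± 0.31, adjusted p = 0.0283), and it was not called without Sham 1, Sham 2, ICH 2, ICH 3 or both Sham 2 and ICH 1 (adjusted p between 0.0767 and 0.0983). The lipid peroxidase Gpx4 stood at 321, 382 and 325 CPM in Sham and 278, 277 and 311 CPM in ICH and did not pass (-0.25 ± 0.13, adjusted p = 0.215). The count was 1 without Sham 1, Sham 2, ICH 2 or ICH 3. Other death pathways had more calls, with 16 of 33 higher and 1 lower (median 0.68). The inflammasome sensor Nlrp3 stood at 5.19, 4.51 and 5.52 CPM in Sham and 25.5, 24.7 and 18.96 CPM in ICH (2.18 ± 0.21, adjusted p = 6.78e-05), the pore protein Gsdmd at 9.19, 8.003 and 8.21 CPM in Sham and 23.6, 25.4 and 24.7 CPM in ICH (1.54 ± 0.16, adjusted p = 8.45e-05) and the necroptosis kinase Ripk3 at 1.06, 1.85 and 1.06 CPM in Sham and 18.4, 8.93 and 10.5 CPM in ICH (3.25 ± 0.45, adjusted p = 0.000597). Casp9, the initiator of the mitochondrial pathway, stood at 109.6, 130.4 and 112 CPM in Sham and 52.998, 61.7 and 71.3 CPM in ICH and fell (-0.92 ± 0.14, adjusted p = 0.001). The survival gene Bcl2l1 overlapped (0.01 ± 0.14, adjusted p = 0.971).

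Lipid mediator genes rose in 8 of 18, with 0 lower (median 0.66). Thromboxane synthase (Tbxas1) stood at 1.9997, 1.92 and 4.32 CPM in Sham and 18.2, 25.9 and 22.5 CPM in ICH (3.02 ± 0.41, adjusted p = 0.000515), and the leukotriene pathway was higher at 3 steps: Alox5ap (1.92 ± 0.27, adjusted p = 0.000659), Ltc4s (1.40 ± 0.23, adjusted p = 0.00173) and Lta4h (0.71 ± 0.13, adjusted p = 0.00317). The prostaglandin D synthase Ptgds, made by meninges and oligodendrocytes, overlapped (-0.23 ± 0.37, adjusted p = 0.728). Purine receptors of microglia rose, with P2ry6 at 7.06, 8.07 and 8.495 CPM in Sham and 40.3, 40.5 and 33.5 CPM in ICH (2.27 ± 0.22, adjusted p = 6.78e-05), P2rx4 at 19.997, 13.95 and 14.1 CPM in Sham and 43.6, 48.3 and 45.9 CPM in ICH (1.52 ± 0.19, adjusted p = 0.000281) and P2rx7 at 18.5, 13.5 and 17.9 CPM in Sham and 34.2, 34.3 and 34.3 CPM in ICH (1.04 ± 0.15, adjusted p = 0.000728). In all, 6 of 16 purine genes rose, and the neuronal Adora2a was the member that fell.

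Cell division genes rose in 18 of 21 for mitosis (median 1.84) and in 8 of 15 for DNA replication (median 0.96). The ribonucleotide reductase subunit Rrm2, made in S phase, stood at 5.19, 1.85 and 3.26 CPM in Sham and 20.1, 26.9 and 29.1 CPM in ICH (2.88 ± 0.33, adjusted p = 0.000163). The mitotic kinase Aurka stood at 6.31, 7.66 and 6.94 CPM in Sham and 19.8, 22.1 and 22.2 CPM in ICH (1.62 ± 0.17, adjusted p = 9.68e-05) and the anaphase activator Cdc20 at 8.12, 5.68 and 4.25 CPM in Sham and 20.5, 25.5 and 23.8 CPM in ICH (1.95 ± 0.28, adjusted p = 0.000763). Sham 2 was the lowest library for Rrm2 and Ccnb2, a mitotic cyclin that stood at 3.69, 0.616 and 2.55 CPM in Sham and 15.2, 19.4 and 22.2 CPM in ICH (3.04 ± 0.47, adjusted p = 0.00112). With 1 library left out, the mitosis count ran from 12 to 19. The arrest gene Cdkn1a, known as p21, rose too, at 12.998, 17.2 and 16.1 CPM in Sham and 26.9, 34.7 and 38.6 CPM in ICH (1.11 ± 0.20, adjusted p = 0.00263), and so did Cdkn2c (1.66 ± 0.30, adjusted p = 0.00285). Cdc45, a replication factor, fell (-0.50 ± 0.15, adjusted p = 0.0362) and was not called when any 1 library except EDB 1 and EDB 2 was left out, and without both Sham 2 and ICH 1, and with library size scaling (adjusted p between 0.051 and 0.121).

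Genes of protein folding, energy and translation had calls in a minority of members, at shares above those of all genes tested. Rises made 25% of the unfolded protein response, 23.1% of glycolysis and hypoxia genes and 21.4% of ribosomal proteins, beside 11.4% of all genes. Falls made 16.7% of mitochondrially encoded genes and 23.5% of nuclear respiratory chain genes, beside 7.30%. The unfolded protein response had 5 rises among 20 (median 0.41), led by Sdf2l1 at 7.499, 10.3 and 10.97 CPM in Sham and 28.4, 34.98 and 28.5 CPM in ICH (1.68 ± 0.19, adjusted p = 0.000157), while the chaperone Hspa5 overlapped (0.51 ± 0.23, adjusted p = 0.154). Glycolysis and hypoxia genes had 6 of 26 rises (3 without Sham 3 or ICH 1). They included hexokinase 2 (Hk2), which stood at 15.4, 12.1 and 14.3 CPM in Sham and 50.4, 46.7 and 33.5 CPM in ICH (1.64 ± 0.22, adjusted p = 0.000447), and the vasodilator peptide Adm, at 1.44, 1.44 and 1.27 CPM in Sham and 10.03, 6.98 and 7.29 CPM in ICH (2.54 ± 0.37, adjusted p = 0.000735). Gapdh (0.09 ± 0.18, adjusted p = 0.793) and Pkm (0.03 ± 0.18, adjusted p = 0.931) overlapped. The neutrophil and macrophage hexokinase Hk3 had 3 counts in Sham and 451 in ICH, a ratio of 130.5 (44.4 to 635). Ribosomal proteins rose in 6 of 28 (2 without Sham 1 and 3 without Sham 3 or ICH 2), with Rplp0 at 558, 599 and 586 CPM in Sham and 988, 1074 and 1033 CPM in ICH (0.83 ± 0.13, adjusted p = 0.00102). The mitochondrially encoded genes had 2 falls of 12 and a median of -0.79, and Mt-nd1 stood at 6949, 7469 and 12281 CPM in Sham and 6031, 3215 and 4586 CPM in ICH (-0.95 ± 0.27, adjusted p = 0.0317). Mt-nd1 was not called without Sham 3, ICH 2 or ICH 3, and with the 6 libraries alone (adjusted p between 0.0594 and 0.121), and the count was 1 without Sham 1, 0 without Sham 3, ICH 2 or ICH 3 and 7 without ICH 1. Nuclear respiratory chain genes had 4 falls of 17, of which Cox6a1, at 386, 464 and 405 CPM in Sham and 257, 278 and 285 CPM in ICH (-0.61 ± 0.12, adjusted p = 0.00415), kept its call in every setting run except the fold threshold of 2. Their count was 1 without Sham 2, ICH 2 or ICH 3 and 2 without ICH 1 or EDB 1.

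At the excitatory synapse, of 33 glutamate receptor and scaffold genes 10 fell and 1 rose (median -0.52). Shank3, the platform under the receptors, stood at 1224, 1428 and 1326 CPM in Sham and 452, 488 and 611 CPM in ICH (-1.36 ± 0.14, adjusted p = 9.59e-05). Dlgap3, its striatum-enriched linker, stood at 1308, 1446 and 1399 CPM in Sham and 532, 534 and 645 CPM in ICH (-1.28 ± 0.14, adjusted p = 0.000111), and Dlg4, which encodes PSD-95, at 1508, 1884 and 1743 CPM in Sham and 695, 844 and 963 CPM in ICH (-1.04 ± 0.15, adjusted p = 0.000714). In all of these the 3 Sham libraries lay close together and above every ICH library. The scaffold Dlg3, a relative of Dlg4, did not pass (-0.21 ± 0.13, adjusted p = 0.313). The receptor subunit Gria1 stood at 177, 231 and 203 CPM in Sham and 155, 204 and 240.3 CPM in ICH, where the groups overlapped and it did not pass (-0.03 ± 0.19, adjusted p = 0.939). The kainate subunit Grik5 fell (-0.91 ± 0.13, adjusted p = 0.000917). Grm3, a metabotropic receptor of astrocytes, was the member that rose (0.53 ± 0.16, adjusted p = 0.0412), and it was not called when any 1 library except ICH 3, EDB 1 and EDB 2 was left out, and without both Sham 2 and ICH 1, and with RLE scaling or limma-voom (adjusted p between 0.0512 and 0.145).

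Genes for inhibitory transmission had 1 fall among 19 (5.26%, beside 7.30% of all genes, median -0.25). The extrasynaptic subunit Gabrd fell (-0.67 ± 0.20, adjusted p = 0.0422), and it was not called without Sham 2, ICH 1, ICH 2, ICH 3, EDB 3 or both Sham 2 and ICH 1, and with library size scaling, limma-voom or the 6 libraries alone (adjusted p between 0.0501 and 0.147). The vesicular transporter Slc32a1 stood at 267, 449 and 255 CPM in Sham and 179, 245 and 277 CPM in ICH, where ICH 3 lay above Sham 1 and Sham 3, and did not pass (-0.47 ± 0.22, adjusted p = 0.18). The difference between the excitatory and inhibitory lists was not tested.

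Voltage-gated sodium and calcium channel genes fell in 13 of 27, with 0 higher (median -0.57). The calcium channel subunit Cacnb3 stood at 346, 438 and 391 CPM in Sham and 167, 169 and 188 CPM in ICH (-1.17 ± 0.12, adjusted p = 8.29e-05), and the T-type pores Cacna1h, at 192, 251 and 214 CPM in Sham and 99.8, 112 and 104 CPM in ICH (-1.05 ± 0.12, adjusted p = 0.000175), and Cacna1i, at 210.2, 344 and 253 CPM in Sham and 126, 145 and 144 CPM in ICH (-0.96 ± 0.17, adjusted p = 0.00273), fell as well. ICH libraries lay close together for each. The sodium channel subunit Scn2b overlapped (-0.38 ± 0.23, adjusted p = 0.299). The count was 8 without Sham 3 or ICH 2 and 7 without ICH 1. Potassium channel genes fell in 10 of 36 and rose in 3 (median -0.40). The sodium-activated channel Kcnt1 stood at 186, 214 and 220 CPM in Sham and 94.1, 100.4 and 91.9 CPM in ICH (-1.11 ± 0.11, adjusted p = 6.78e-05) and the striatal channel Kcnh4 at 54.4, 82.1 and 48.6 CPM in Sham and 27.8, 30.1 and 27.3 CPM in ICH (-1.12 ± 0.19, adjusted p = 0.00201). The risen members were channels found on immune cells or microglia: Kcnn4 at 0.937, 1.2996 and 1.49 CPM in Sham and 15.9, 9.19 and 6.103 CPM in ICH (3.06 ± 0.41, adjusted p = 0.000496), Kcnk13 at 3.87, 6.02 and 5.66 CPM in Sham and 12.1, 12.4 and 13.02 CPM in ICH (1.27 ± 0.21, adjusted p = 0.00192), and Kcnk6 (1.99 ± 0.51, adjusted p = 0.0202), which was not called without Sham 1, Sham 2, ICH 1 or both Sham 2 and ICH 1 (adjusted p between 0.0578 and 0.11). The count of falls was 6 without ICH 1.

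Vesicle and release genes fell in 8 of 26, with 0 higher (median -0.51). The priming factor Unc13a stood at 226, 315 and 269 CPM in Sham and 114, 132 and 136 CPM in ICH (-1.09 ± 0.14, adjusted p = 0.000322) and the release clamp Cplx2 at 888, 1011 and 1004 CPM in Sham and 369, 389.5 and 518 CPM in ICH (-1.18 ± 0.16, adjusted p = 0.000409). The groups were apart in both. Synaptophysin (Syp), a general vesicle marker, stood at 446, 731 and 508 CPM in Sham and 369, 372 and 399 CPM in ICH and did not pass (-0.56 ± 0.19, adjusted p = 0.0569), though it passed without Sham 1, and with DESeq2 (adjusted p between 0.0159 and 0.0285).

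Striatal cAMP and G protein signalling fell in 12 of 22, with 0 higher (median -0.63). The small G protein Rasd2, known as Rhes and rich in striatum, stood at 2632, 3810.5 and 3203 CPM in Sham and 1271, 1636 and 1646 CPM in ICH (-1.08 ± 0.17, adjusted p = 0.00119). Camkk2, an upstream kinase, stood at 163, 225 and 208 CPM in Sham and 96.96, 92.1 and 98.99 CPM in ICH (-1.05 ± 0.13, adjusted p = 0.000317), and the inositol phosphate kinase Itpka at 142, 171 and 113 CPM in Sham and 71.01, 89.2 and 88.4 CPM in ICH (-0.78 ± 0.16, adjusted p = 0.00541). Gnal, the G protein that couples dopamine and adenosine receptors to cAMP, stood at 467, 699 and 512 CPM in Sham and 416, 492 and 568 CPM in ICH and did not pass (-0.18 ± 0.17, adjusted p = 0.519). The count was 6 without ICH 1. Of 21 receptors 7 fell (median -0.57). Besides Gpr52 and Adora2a, the delta opioid receptor Oprd1 stood at 6.81, 10.8 and 8.42 CPM in Sham and 3.85, 4.34 and 4.104 CPM in ICH (-1.08 ± 0.23, adjusted p = 0.00798), and it was not called without both Sham 2 and ICH 1 (adjusted p = 0.0529). The receptor count was 4 without Sham 3 and 3 without ICH 1, ICH 2 or ICH 3.

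Among the genes that lost the most reads were several of the synapse. Agap2, a regulator of endosomes at synapses, stood at 3410.4, 4011 and 3906 CPM in Sham and 1487, 1546 and 1929 CPM in ICH (-1.19 ± 0.14, adjusted p = 0.000238). The kinase Camk2a, central to plasticity, stood at 2124, 2680 and 2800.4 CPM in Sham and 1134, 1062 and 1488 CPM in ICH (-1.05 ± 0.18, adjusted p = 0.00201) and dendrin (Ddn), which is carried to dendrites as messenger RNA, at 2191, 2182 and 2605 CPM in Sham and 1000.4, 995 and 1473 CPM in ICH (-1.01 ± 0.19, adjusted p = 0.00399). ICH values were below every Sham value in these 3, as the rule that named them required. The adenylyl cyclase Adcy1 and the kinase Map3k10 were among the falls with the smallest p, at 591, 623 and 752 CPM in Sham and 243, 216 and 235 CPM in ICH (-1.50 ± 0.15, adjusted p = 7.03e-05) and 342, 355 and 345 CPM in Sham and 149.8, 148 and 163 CPM in ICH (-1.18 ± 0.11, adjusted p = 4.96e-05). In Map3k10 both groups lay in narrow ranges.

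**Figure D5:**
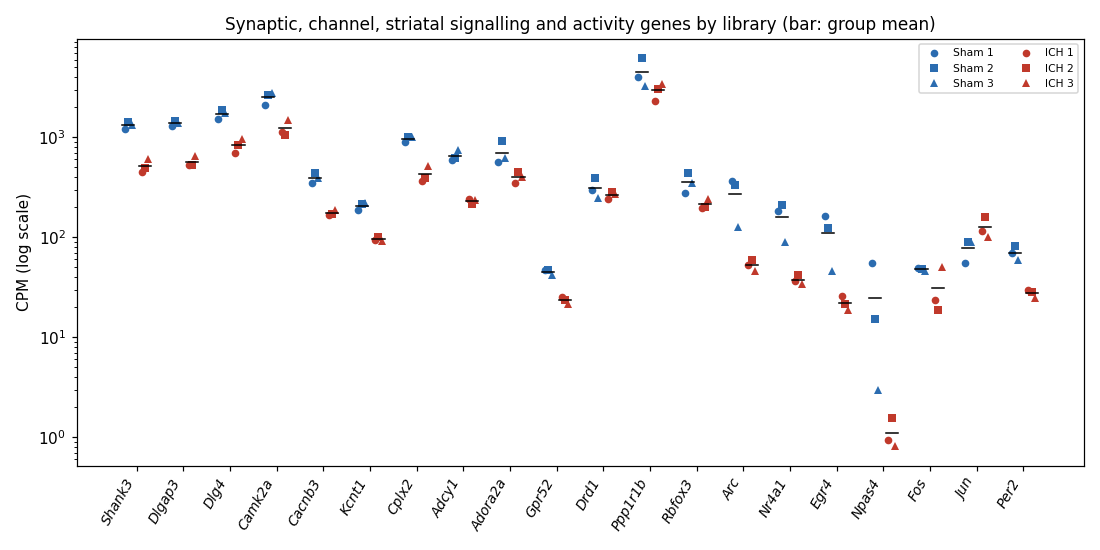
CPM on a log axis is plotted for 20 neuronal and activity genes in each library, with blue symbols for Sham 1 to 3, red symbols for ICH 1 to 3 and a black bar at each group mean. Shank3 to Gpr52 show separate groups, Drd1, Ppp1r1b and Fos overlap, and the activity genes from Arc to Npas4 spread widely within Sham.

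Immediate early genes, which neurons switch on within minutes of activity, had the lowest median of all process lists, -1.04, with 11 of 20 lower and 1 higher. Arc, which acts on receptors at active synapses, stood at 361, 332 and 127 CPM in Sham and 52.998, 59.4 and 45.6 CPM in ICH (-2.38 ± 0.35, adjusted p = 0.00096). Nr4a1 stood at 184, 208 and 89.2 CPM in Sham and 36.8, 41.97 and 33.8 CPM in ICH (-2.10 ± 0.27, adjusted p = 0.000353) and Egr4 at 163, 125 and 45.7 CPM in Sham and 25.9, 21.5 and 18.8 CPM in ICH (-2.33 ± 0.40, adjusted p = 0.00261), and Egr4 was not called without both Sham 2 and ICH 1 (adjusted p = 0.055). Sham 3 was the lowest Sham library in each of these, and it still lay above all ICH libraries. Npas4, induced by calcium entry, stood at 55.4, 15.3 and 2.97 CPM in Sham and 0.933, 1.57 and 0.810 CPM in ICH (-4.48 ± 1.12, adjusted p = 0.0203), with a wide spread within Sham. Npas4 was not called without Sham 1, Sham 2, ICH 1, ICH 2, ICH 3 or both Sham 2 and ICH 1, and with no filter or limma-voom (adjusted p between 0.0535 and 0.144), and its change was -3.10 without Sham 1.

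The list was not uniform. Fos stood at 49.7, 48.5 and 45.9 CPM in Sham and 23.7, 18.8 and 50.4 CPM in ICH, where ICH 3 exceeded every Sham library, and it did not pass (-0.63 ± 0.30, adjusted p = 0.182). It passed without ICH 3 (adjusted p = 0.00333). Jun, which also responds to injury, was the member that rose, at 55.6, 89.3 and 89.6 CPM in Sham and 117, 159.7 and 99.7 CPM in ICH (0.68 ± 0.21, adjusted p = 0.0488), and it was not called when any 1 library except ICH 3 was left out, and without both Sham 2 and ICH 1, and with RLE scaling or the 6 libraries alone (adjusted p between 0.0524 and 0.229). The cAMP response element TGACGTCA was searched in the 250 bases upstream on both strands and was held by 3 of 15 members with an entry (20%), beside 2.81% of tested genes. These were Jund (-0.21 ± 0.14, adjusted p = 0.354), Ier2 (0.00 ± 0.27, 0.997) and Btg2 (-0.81 ± 0.33, 0.115), named for that match, and none of them passed the test, though Btg2 passed without Sham 1 (adjusted p = 0.0263).

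Clock genes fell in 6 of 15, with 0 higher (median -0.52). Per2 stood at 69.3, 82.1 and 58.6 CPM in Sham and 29.5, 28.6 and 24.95 CPM in ICH (-1.34 ± 0.17, adjusted p = 0.00037) and Per3 at 91.1, 80.2 and 81.3 CPM in Sham and 42.3, 55.3 and 51.1 CPM in ICH (-0.76 ± 0.13, adjusted p = 0.00243), both repressors of the clock. The output factor Dbp stood at 391, 573 and 363 CPM in Sham and 228, 277 and 273 CPM in ICH (-0.77 ± 0.18, adjusted p = 0.0125), and it was not called without ICH 1 or both Sham 2 and ICH 1 (adjusted p between 0.0506 and 0.0553). The hour of sampling is not given in the sources used here. Their count was 2 without ICH 1. Glucocorticoid-induced genes moved both ways: the metallothionein Mt2A stood at 37.9, 25.6 and 29.2 CPM in Sham and 184, 252 and 345 CPM in ICH (3.07 ± 0.35, adjusted p = 0.000182), while Tsc22d3, known as GILZ, stood at 116, 124 and 132 CPM in Sham and 78.7, 81.5 and 84.8 CPM in ICH (-0.60 ± 0.10, adjusted p = 0.00193). Metallothionein copies share sequence, so their split is uncertain.

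Axon injury genes had 3 rises and 3 falls of 16 (18.8% each way, beside 11.4% higher and 7.30% lower of all genes, median 0.27). The tubulin Tubb6 stood at 12.1, 10.8 and 12.03 CPM in Sham and 56.9, 46.2 and 45.7 CPM in ICH (2.09 ± 0.22, adjusted p = 9.66e-05). Sprr1a, which injured neurons make, stood at 0.625, 1.23 and 1.13 CPM in Sham and 2.92, 19.002 and 11.2 CPM in ICH (3.46 ± 0.61, adjusted p = 0.00277), with ICH 2 the highest and a change of 2.78 without it. The growth cone protein Gap43 fell (-0.62 ± 0.16, adjusted p = 0.0175) and was not called without Sham 3, ICH 1, ICH 3 or both Sham 2 and ICH 1, and with library size scaling (adjusted p between 0.0503 and 0.066), and the peptidase Ecel1 fell (-1.04 ± 0.22, adjusted p = 0.0077). Klf4, a brake on axon growth, fell (-1.47 ± 0.40, adjusted p = 0.0265), with a change of -2.08 without ICH 3, and was not called without Sham 3, ICH 1, ICH 2 or both Sham 2 and ICH 1 (adjusted p between 0.0812 and 0.112). The count of falls was 1 without Sham 3. Of 11 members with an upstream window 1, Sprr1a, held the AP-1 motif TGANTCA, beside 4.34% of tested genes. Its window is shown because it holds the motif at 2 places, in capitals.
Sprr1a, chr2:180752716-180752792, minus strand: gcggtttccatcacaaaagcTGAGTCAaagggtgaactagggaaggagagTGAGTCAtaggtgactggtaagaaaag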

How the data were processed

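RNA of striatal tissue was sequenced in 9 libraries, 3 each labelled Sham, Intracerebral hemorrhage and Edaravone dexborneol. The authors deposited raw counts per gene for each library. The submitters' processing notes name cutadapt, HISAT2, HTSeq and limma and the build Rnor_6.0, with versions, annotation and use of strand not given in the sources used here. Genes that overlap or lie antisense to each other may therefore share reads.

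Counts were filtered with filterByExpr by group, scaled by TMM and fitted in edgeR 4.0.16 (R 4.3.3) with the robust quasi-likelihood model over all 9 libraries. ICH was contrasted with Sham, with Benjamini-Hochberg adjustment over all genes tested and a threshold of 0.05. The standard error is the size of the log2 fold change over the square root of the F statistic. The script was tested on simulated data. Total counts of 14658110 to 17659936 a library set the precision, and counting intervals cover counting error only. Where the Sham libraries held 3 or fewer counts, the ratio of summed counts is given with its exact interval.

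The named genes are those with the largest change in CPM, the largest log2 change where the higher group's mean reached 5 CPM, or the smallest p. These rankings took only called genes with a symbol and no overlap between the Sham and ICH libraries. For genes named by them, groups that lie apart are thus a condition and not a result. The rule also took, for each list, up to 5 members with the smallest p, up to 2 abundant members that did not pass and members that went against their list. Irf7, Bst2, Ifitm3, Gbp2, Rsad2, Ifi27, Gbp5, Ifih1, Ifit3, Cd68, Ier2, Btg2, Serpina3n and Fth1 fall outside that rule and were chosen after their values were seen. The members and the lists were chosen with earlier results of these data known. Lists are described by counts and medians, without a set test. Alternatives were RLE scaling, library size scaling, no filter, a filter at 1 CPM in 3 libraries, DESeq2 1.42.0, limma-voom 3.58.1, a fit of the 6 libraries alone, a replicate block, a fold threshold and the omission of each library in turn. Upstream sequences are those of RefSeq for GRCr8 and were matched by symbol for 10853 of the genes tested. The counts use another build, so no coordinate was carried between them. Some genes are not reported here.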

Additional observations from a re-analysis of the deposited data

How the results depend on the processing

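Counts of genes called higher and lower in ICH were 1516 and 1135 with RLE scaling, 1578 and 934 with no filter, 1597 and 1053 with a filter at 1 CPM in 3 libraries, 1800 and 1465 with DESeq2, 1622 and 1012 with limma-voom and 1489 and 838 with the 6 libraries alone. With library size scaling 2008 were higher and 691 lower, and the median of all genes moved by 0.10 on the log2 scale. A fold threshold of 2 left 976 and 213. With 1 library left out, higher calls ran from 1160 to 1631 and lower calls from 565 (without ICH 1) to 993. Leaving out both Sham 2 and ICH 1, an alternative chosen after seeing the data, gave 1296 and 788. Whether replicate numbers pair the libraries could not be told. Deviations of same-numbered Sham and ICH libraries correlated at -0.01, 0.24 and -0.08, and those of unlike-numbered libraries from -0.23 to 0.25. With 3 libraries centred on their own group mean these values constrain each other, so they cannot exclude pairing. With the replicate number as a block 1347 genes were higher and 746 lower. Of 313 named genes called, 225 kept direction and call in all of these settings, the block included, apart from the fold threshold, the others lost the call in at least 1, and none of the 498 named genes reversed.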

Other observations

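Imprinted genes, which are expressed from 1 parental copy, had 2 rises and 2 falls among 12 tested (median -0.37). Each direction made 16.7% of the list, beside 11.4% higher and 7.30% lower of all genes tested. The count of rises was 1 without Sham 1, Sham 2, Sham 3, ICH 1 or ICH 3, and the count of falls 1 without Sham 3, ICH 1 or ICH 2. The growth-restraining RNA H19 stood at 0.562, 0.0684 and 0.0708 CPM in Sham and 25.1, 26.9 and 24.1 CPM in ICH (6.66 ± 0.77, adjusted p = 0.000183), and the cell cycle inhibitor Cdkn1c at 4.25, 5.95 and 6.65 CPM in Sham and 20.99, 13.5 and 21.98 CPM in ICH (1.75 ± 0.48, adjusted p = 0.0277). Without Sham 1 the change of H19 was 8.32, and Cdkn1c was not called without Sham 1, Sham 2, Sham 3, ICH 1, ICH 3 or both Sham 2 and ICH 1, and with limma-voom (adjusted p between 0.0538 and 0.17). The splicing gene Snrpn, abundant in neurons, fell from 663, 793 and 735 CPM to 453, 448 and 524 CPM (-0.62 ± 0.12, adjusted p = 0.00506). Grb10 fell (-0.44 ± 0.13, adjusted p = 0.0359) and was not called without Sham 2, Sham 3, ICH 1, ICH 2 or both Sham 2 and ICH 1, and with library size scaling or the 6 libraries alone (adjusted p between 0.0563 and 0.124). Peg3 (-0.38 ± 0.16, adjusted p = 0.138) and Ndn (0.09 ± 0.22, adjusted p = 0.844) did not pass, and Peg3 passed without Sham 2 or both Sham 2 and ICH 1 (adjusted p between 0.0359 and 0.0461).

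None of 17 neuropeptide genes passed the test, and their median of 0.02 lay beside 0.01 for all genes tested. Without Sham 1, Sst and Npy were lower (adjusted p = 0.0421 and 0.0341), and without ICH 1 the higher count was 1. The granin Scg2, a part of dense core vesicles, stood at 107, 122 and 124 CPM in Sham and 122, 182 and 181 CPM in ICH (0.46 ± 0.16, adjusted p = 0.0743), with Sham 2, Sham 3 and ICH 1 at nearly the same level, and it passed without ICH 1 or both Sham 2 and ICH 1, and with library size scaling (adjusted p between 0.0133 and 0.0367). Vasoactive intestinal peptide (Vip) stayed under 1 CPM in every library.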
